A study of Mus musculus with 96 samples.

Results

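The genes described are 10 genes of prostaglandin synthesis, reception and inactivation, chosen as the rows of the expression table with the symbols Ptgs1, Ptgs2, Ptges, Ptges2, Ptges3, Ptgis, Ptger2, Ptger4, Ptgfr and Hpgd. All 10 were present among the 15895 gene rows. The cells are primary mouse embryonic fibroblasts (MEFs) of the CF-1 strain from embryonic day 13, with no genetic change named. Starvation lasted 36 h in medium with 0.5% fetal calf serum (FCS), FCS was raised to 20% at 0 h, and polyA RNA was sequenced over successive hours in 2 time courses, named Cycle 1 and Cycle 2. Cycle 1 has 63 usable libraries from -1 to 38 h and Cycle 2 has 32 from -1 to 27 h. The starved state is the -1 and 0 h libraries of each Cycle, 4 libraries in all. The hours after serum fall into windows of 0.5 to 1.5 h, 2 to 3.5 h, 4 to 6.5 h, 7 to 14.5 h, 15 to 23.5 h and 24 to 27 h, and 28 to 38 h was sampled in Cycle 1 only. MEF cultures are mixed populations, and how many embryos or cultures lie behind each Cycle is not given in the sources used here. The p-values thus measure how far the changes over the windows differ between these time courses. A constant difference between the Cycles is removed.

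Prostaglandins are short-lived lipid signals made from arachidonic acid, which phospholipases release from membranes. The cyclooxygenases Ptgs1 and Ptgs2 convert it to prostaglandin H, and terminal synthases turn that into prostaglandin E, prostacyclin and other products, which leave the cell and act on receptors coupled to G proteins. Hpgd oxidises the products after their uptake and so ends the signal. Ptgs2 is a classical serum-inducible gene of fibroblasts, while Ptgs1 is usually regarded as the constitutive enzyme.

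Values are reads on the exons of a gene per 10000000 reads, as deposited, and are not divided by gene length. In each Cycle the mean of log2(value + 1) was taken in every window, and the windows were compared with the starved state by limma, with the Cycle as a block and 1 mean per Cycle and window. A gene was called in a window when the Benjamini-Hochberg adjusted p over all genes was under 0.05 and the log2 change above 1 in size. Depth recovered from the values was 5067431 to 14500276 reads a library, and 3 reads correspond to a value of 2.07 to 5.92. Under this scaling the median gene changed by -0.33 to -0.13 log2 units over the windows, and under median-ratio scaling by -0.11 to 0.02. That scaling also moved the split of called genes from 373 higher and 512 lower to 426 and 338 at 0.5 to 1.5 h, from 1024 and 2718 to 1533 and 1572 at 2 to 3.5 h, and from 1190 and 2831 to 1485 and 2169 at 4 to 6.5 h. The library at 24.5 h of Cycle 1 stood apart, and its median absolute log2 distance to the mean of its neighbours was 0.411 over 9112 genes. The one at 27 h of Cycle 2 is the last of its Cycle, so this measure could not be taken for it. Its median distance to the library before it was 0.131. That distance was 0.0879 at 26 h and 0.229, the largest of Cycle 2, at 5 h, and 0.487 at 24.5 h of Cycle 1. In the 27 h library of Cycle 2 single genes changed, Ptgs2 and Ptger4 among them, as given below. All 9 fibroblast markers were present, and their summed value was 386400 to 533000 in starved libraries and 185200 to 499100 after serum. The sum was 185200 to 237000 at 15 to 23.5 h and 201700 to 245200 at 24 to 27 h, below all starved libraries. In each window from 7 to 27 h 3 of the 9 were called lower and 1 higher. Of the leukocyte markers 8 of 9 were in the table, with sums of 1215 to 3673 in starved libraries and 525.6 to 5117 after serum, so the ranges overlap. All 8 had values above 0 in every library, but the lowest, 1.88 for Fcgr3, was under the value of 3 reads. By limma 2 were called at 4 to 6.5 h, both higher. At 7 to 14.5 h 1 was called higher, and at 24 to 27 h 1 lower. Markers of other cell types changed too. Of 4 smooth muscle markers 1 was called lower in each window from 2 to 14.5 h, and 3 were called higher at 15 to 23.5 h and at 24 to 27 h. The sums of the 4 there were 80510 to 169600 and 120700 to 172800, against 20720 to 65580 in starved libraries. At 15 to 23.5 h and 24 to 27 h 5.9% and 5.69% of all genes were called higher, and 16.1% and 18.2% lower. Of 6 endothelial markers 4 were called lower in each of these windows, with sums of 216.7 to 291.8 in starved libraries and 56.3 to 117 at 24 to 27 h, and Pecam1 and Tie1 were at 0 in some libraries. Of 5 epithelial markers 1 was called higher at 4 to 6.5 h, and 3 were called lower in both late windows. The sums of the 5 were 108.7 to 305.1 in starved libraries and 76.1 to 227.1 at 24 to 27 h. Both mast cell markers in the table, of 3 listed, were called lower in both windows, from sums of 13.4 to 27.4 in starved libraries to 0 to 8.65 at 24 to 27 h. Of 4 skeletal muscle markers 3 were called lower at 2 to 3.5 h, with sums of 1046 to 1759 in starved libraries and 417 to 1150 in that window. The part of these lists in the results was not tested, and in bulk RNA fewer cells of a type and less RNA per cell cannot be told apart.

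Ptgs2 and Ptger4 were called higher in 6 windows, and Ptgfr and Hpgd lower in 5. The promoters of these members, called in the most windows, are shown. They are the 250 bases before the annotated start, from RefSeq on GRCm38.p6, 5′ to 3′ on the strand of the gene. Capitals mark matches on either strand to 7 motifs searched. These were the half-site of the cyclic AMP response element (CRE half-site, TGACG) and the E-box of Myc and USF factors (CACGTG). The general promoter motifs were the GC box (GGGCGG), the TATA box (TATAAA) and the box named after its letters, CCAAT. The other motifs were the AP-1 site (TGANTCA) and a palindrome like C/EBP sites (TTGCGCAA), called the C/EBP-like site here. A promoter was found for 9 of the 10 members.
Ptgs2, chr1:150099781-150100030, plus strand: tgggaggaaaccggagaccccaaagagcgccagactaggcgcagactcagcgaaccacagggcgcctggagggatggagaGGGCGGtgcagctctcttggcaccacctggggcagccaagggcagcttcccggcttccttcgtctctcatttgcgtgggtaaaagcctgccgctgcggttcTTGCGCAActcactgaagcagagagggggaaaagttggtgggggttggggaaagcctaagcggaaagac
Ptger4, chr15:5244188-5244437, minus strand: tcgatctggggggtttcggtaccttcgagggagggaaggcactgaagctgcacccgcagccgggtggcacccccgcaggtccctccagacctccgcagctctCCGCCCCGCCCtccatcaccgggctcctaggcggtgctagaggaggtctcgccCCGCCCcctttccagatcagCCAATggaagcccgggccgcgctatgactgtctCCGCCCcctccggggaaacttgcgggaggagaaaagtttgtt
Ptgfr, chr3:151837529-151837778, minus strand: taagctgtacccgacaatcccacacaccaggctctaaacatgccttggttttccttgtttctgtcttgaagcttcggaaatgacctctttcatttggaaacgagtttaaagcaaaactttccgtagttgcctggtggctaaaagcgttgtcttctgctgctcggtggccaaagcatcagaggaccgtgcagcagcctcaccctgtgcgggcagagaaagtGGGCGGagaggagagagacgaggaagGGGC
Hpgd, chr8:56294302-56294551, plus strand: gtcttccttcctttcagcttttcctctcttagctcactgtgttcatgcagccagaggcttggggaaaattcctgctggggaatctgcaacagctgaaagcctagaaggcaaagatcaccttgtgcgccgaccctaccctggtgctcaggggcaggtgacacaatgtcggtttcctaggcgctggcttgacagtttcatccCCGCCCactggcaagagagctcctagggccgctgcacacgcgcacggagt

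In Ptgs2 and Hpgd the first 30 bases after the annotated start also hold a match, and they are shown for that reason.
Ptgs2, chr1:150100031-150100060, plus strand: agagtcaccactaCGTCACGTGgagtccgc
Hpgd, chr8:56294552-56294581, plus strand: gggcTATAAAagctgctgcggcgtccagac
In Ptgs2 the CRE half-site on the minus strand, bases 14 to 18 after the start, overlaps the E-box at bases 17 to 22, and the C/EBP-like site lies 69 to 62 bases before the start. Ptger4 holds 4 GC boxes, 2 of which share a base, and 1 CCAAT. Ptgfr holds 2 GC boxes, one of them crossing the start, and Hpgd holds 1. In windows of 300 bases around all 32851 starts, the C/EBP-like site was found in 0.183%, the E-box in 7.15%, the AP-1 site in 7.81%, the TATA box in 13.6%, the CRE half-site in 20.8%, the GC box in 35.7% and CCAAT in 37.4%. A match describes the letters of the window and nothing about binding, and no binding was measured here.

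**Figure D1:**
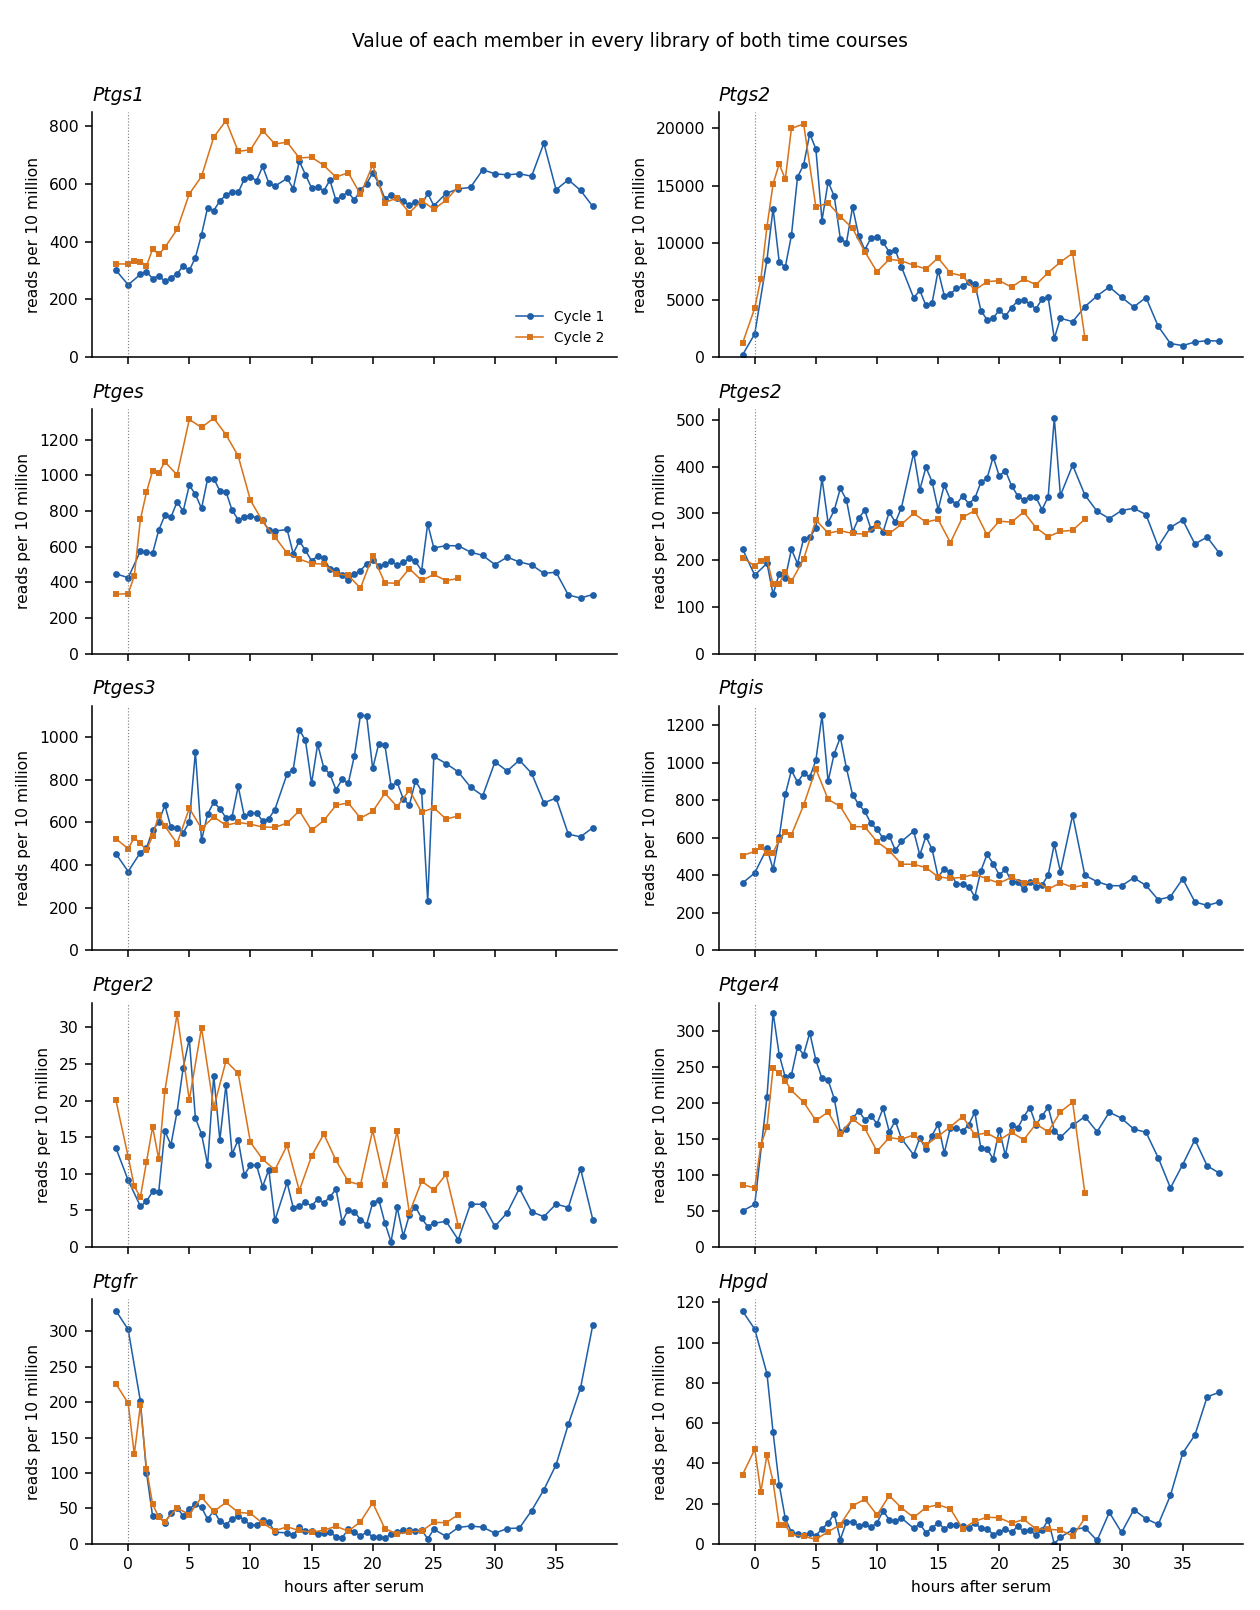
Value of each of the 10 genes, in reads per 10000000, in every library against hours after serum, with Cycle 1 as blue circles and Cycle 2 as orange squares. Ptgs2 rises to a highest value of 19538 in Cycle 1 and 20381 in Cycle 2. Ptgfr and Hpgd fall within 3 h, and in Cycle 1 Ptgfr rises again from 33 h on and Hpgd from 34 h on.

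No libraries without serum match the later hours, so the part of serum itself was not tested. Over all windows a gene was called by the limma F test over the 6 windows with a log2 change above 1 in size in at least 1. This called 8 of the 10 genes, against 43% of all genes. The exceptions are Ptges2 and Ptges3. At 0.5 to 1.5 h 2 of the 10 were called, both higher, where 2.35% of all genes were called higher and 3.22% lower. Later the members called higher and lower numbered 3 and 2 at 2 to 3.5 h (6.44% and 17.1%), 4 and 2 at 4 to 6.5 h (7.49% and 17.8%), 4 and 2 at 7 to 14.5 h (6.29% and 14.6%), 2 and 2 at 15 to 23.5 h (5.9% and 16.1%), and 2 and 3 at 24 to 27 h (5.69% and 18.2%). Without Cycle 1 in the window, 1 member was called at 0.5 to 1.5 h and 3 at 7 to 14.5 h. The median log2 change of the members was highest at 4 to 6.5 h, at 0.63 against -0.25 for all genes. The higher calls came from synthesis enzymes and 1 receptor, and the lower calls from Ptgfr, Hpgd and, at 24 to 27 h, Ptger2.

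Ptgs2, the inducible cyclooxygenase (ENSMUSG00000032487.7, NCBIM37 chr1:151947254-151955140, plus strand), was called higher in all 6 windows. Its starved values were 168 at -1 h and 2017 at 0 h in Cycle 1, and 1191 and 4274 in Cycle 2. In the first window the libraries at 1 and 1.5 h of Cycle 1 had 8503 and 12987, and those at 0.5, 1 and 1.5 h of Cycle 2 had 6820, 11397 and 15139. All 5 libraries lay above all 4 starved ones. The highest values were 19538 at 4.5 h in Cycle 1 and 20381 at 4 h in Cycle 2.

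At 4 to 6.5 h, where the change of Ptgs2 was largest, the 6 libraries of Cycle 1 had 11936 to 19538 with a median of 16070, and the 3 of Cycle 2 had 13128 to 20381. The log2 change was 3.76 (SE 0.42, 13.5-fold, limma adjusted p = 0.00041), with 4.75 in Cycle 1 and 2.76 in Cycle 2. The changes were 3.20 at 0.5 to 1.5 h (adjusted p = 0.00408), 3.54 at 2 to 3.5 h (0.000551), 2.91 at 7 to 14.5 h (0.00153), 2.32 at 15 to 23.5 h (0.00404) and 1.90 at 24 to 27 h (0.00832). After the peak the level declined, to 3246 to 7552 in Cycle 1 and 5844 to 8668 in Cycle 2 at 15 to 23.5 h. Up to 27 h, 49 of 50 libraries of Cycle 1 and 29 of 30 of Cycle 2 lay above both starved libraries of the same Cycle. The exceptions were 1620 at 24.5 h of Cycle 1 and 1696 at 27 h of Cycle 2, each between the -1 and 0 h values of its Cycle. At 28 of the 29 hours sampled in both Cycles, Ptgs2 was over 2-fold above the starved mean of each Cycle.

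The size of this rise depends on which starved library it is measured from. Between -1 and 0 h Ptgs2 rose 11.9-fold in Cycle 1 and 3.59-fold in Cycle 2. Among 10485 genes with a mean of at least 50, 62 (0.591%) rose over 2-fold in both Cycles over that hour, and in 32 the smaller of the 2 rises exceeded that of Ptgs2. Picked out after their values were seen, the 4 with the largest smaller rise were Fosb (305.5-fold and 280.2-fold), Fos (27.2-fold and 32.5-fold), the chemokine Cxcl2 (24.8-fold and 37.5-fold) and Atf3 (22.2-fold and 13.8-fold). Fosb, Fos and Atf3 are immediate early transcription factors. What was done to the cells in that hour is not given in the sources used here, and its part in the rise was not tested. With the -1 h libraries alone as the starved state the largest log2 change of Ptgs2 was 5.11, and with the 0 h libraries alone it was 2.41, both called. Against 0 h alone, the changes at 15 to 23.5 h (0.97, adjusted p = 0.0261) and at 24 to 27 h (0.54, adjusted p = 0.148) were no longer called. Leaving out only the -1 h library of Cycle 1 gave 2.87 and leaving out only its 0 h library gave 4.65 at 4 to 6.5 h.

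**Figure D2:**
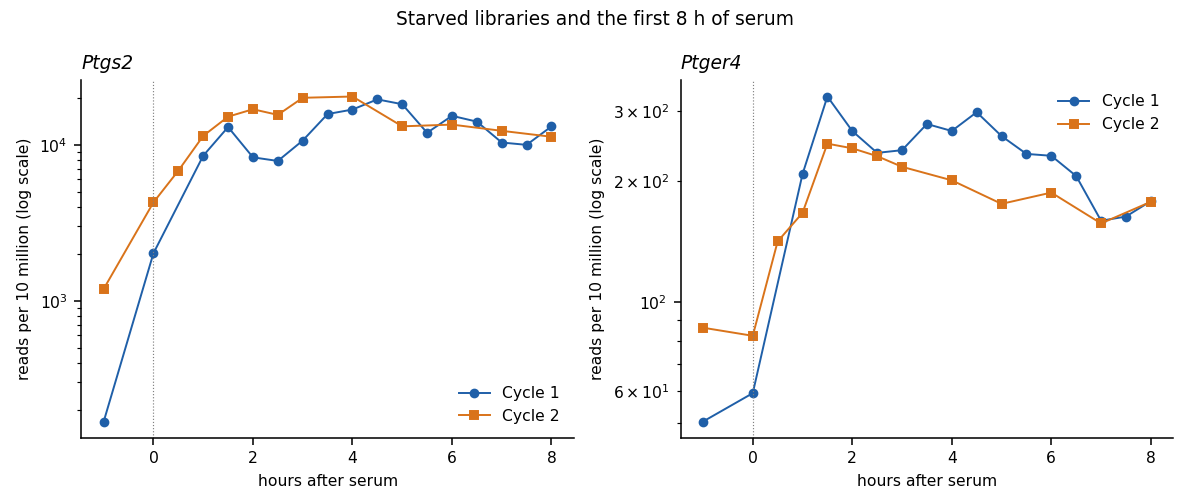
Ptgs2 (left) and Ptger4 (right), in reads per 10000000 on a log axis, from -1 to 8 h, with Cycle 1 as blue circles and Cycle 2 as orange squares and a dotted line at the addition of serum. Ptgs2 climbs from 168 to 2017 and from 1191 to 4274 before serum, whereas Ptger4 goes from 50.4 to 59.3 and from 86.3 to 82.4.

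Ptgs1, the constitutive cyclooxygenase (ENSMUSG00000047250.6, chr2:36085946-36107792, plus strand), rose later and less. Its starved values were 301 and 249.8 in Cycle 1 and 322 and 322 in Cycle 2. Up to 3.5 h Cycle 1 stayed between 262 and 295.8 and Cycle 2 between 316 and 379.6. At 7 to 14.5 h the 15 libraries of Cycle 1 had 508 to 678 (median 603.5) and the 8 of Cycle 2 had 689.7 to 819 (median 741), with no overlap with the starved ones. The log2 change there was 1.16 (SE 0.17, 2.24-fold, limma adjusted p = 0.00166), with 1.12 and 1.21 in the Cycles. At 15 to 23.5 h it was 0.97 (adjusted p = 0.0036), just under the 2-fold rule, and edgeR on the recovered reads called it there at 1.09 (adjusted p = 0.000875) and at 24 to 27 h at 1.03 (adjusted p = 0.0012).

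Both cyclooxygenases can be set side by side only per length. Per 1000 bases of the exons joined over the annotated transcripts, Ptgs2 stood at 40.6 at -1 h and 487 at 0 h in Cycle 1, and at 288 and 1032 in Cycle 2. Ptgs1 stood at 77.4 and 64.3 in Cycle 1 and at 83.0 and 83.0 in Cycle 2. Ptgs2 was thus the lower of the pair at -1 h of Cycle 1 and the higher in the other 3 starved libraries. At 4 to 6.5 h the levels per 1000 bases were 3857 and 3780 for Ptgs2 and 94.0 and 140.1 for Ptgs1.

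The prostaglandin E synthases followed different courses. Ptges, the membrane-bound and inducible synthase (ENSMUSG00000050737.10, chr2:30744991-30785383, minus strand), had 448 and 426 in the starved libraries of Cycle 1 and 333 and 336 in those of Cycle 2. At 4 to 6.5 h it had 799 to 980.2 in Cycle 1 and 1002 to 1313 in Cycle 2, above all 4 starved libraries. The log2 change was 1.41 (SE 0.27, 2.67-fold, limma adjusted p = 0.00342), with 1.00 in Cycle 1 and 1.82 in Cycle 2. Ptges was also called at 2 to 3.5 h (1.15, adjusted p = 0.00846) and at 7 to 14.5 h (1.03, adjusted p = 0.0171), and its highest value fell at 7 h in both Cycles, at 981 and 1320. In these windows Cycle 1 gave 0.67 and 0.76, under 2-fold, and Cycle 2 gave 1.63 and 1.31. At 3 of the 29 shared hours Ptges was over 2-fold above the starved mean in both Cycles. By 15 to 23.5 h the change was 0.30 (adjusted p = 0.384).

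Ptges2, a second membrane-associated synthase (ENSMUSG00000026820.3, chr2:32251416-32258259, plus strand), ranged from 168 to 224 in the starved libraries and from 250.1 to 504 at 24 to 27 h. Its largest log2 change was 0.70 (SE 0.18, adjusted p = 0.0151) in that window, with 0.96 in Cycle 1 and 0.43 in Cycle 2, under the 2-fold rule. Ptges3, the cytosolic synthase that is also the Hsp90 co-chaperone p23 (ENSMUSG00000071072.5, chr10:127496010-127514328, plus strand), ranged from 369 to 523 in the starved libraries and from 562 to 1101 at 15 to 23.5 h. Its log2 change there was 0.73 (SE 0.17, adjusted p = 0.0121), with 1.05 and 0.40 in the Cycles. Exons of Ptges3 overlap those of Baz2a on the same strand, so reads of the shared part could belong to either gene.

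Ptgis, prostacyclin synthase (ENSMUSG00000017969.7, chr2:167017305-167066104, minus strand), rose briefly. Starved values were 359 and 413 in Cycle 1 and 506 and 528 in Cycle 2. At 4 to 6.5 h they were 901 to 1254 and 775 to 968, above all starved libraries, and the log2 change was 1.05 (SE 0.23, 2.07-fold, limma adjusted p = 0.00633), with 1.39 and 0.71 in the Cycles. The call is at the edge of the 2-fold rule, and without the -1 h library of Cycle 1 the change was 0.997 and not called. It was 0.98 against the 0 h libraries alone and 0.97 without Cycle 1 in that window, not called in either. By 15 to 23.5 h the change was -0.23 (adjusted p = 0.44). Exons of Ptgis overlap a noncoding transcript on the other strand, 1110018N20Rik, and reads were counted on both strands, so the 2 cannot be told apart.

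**Figure D3:**
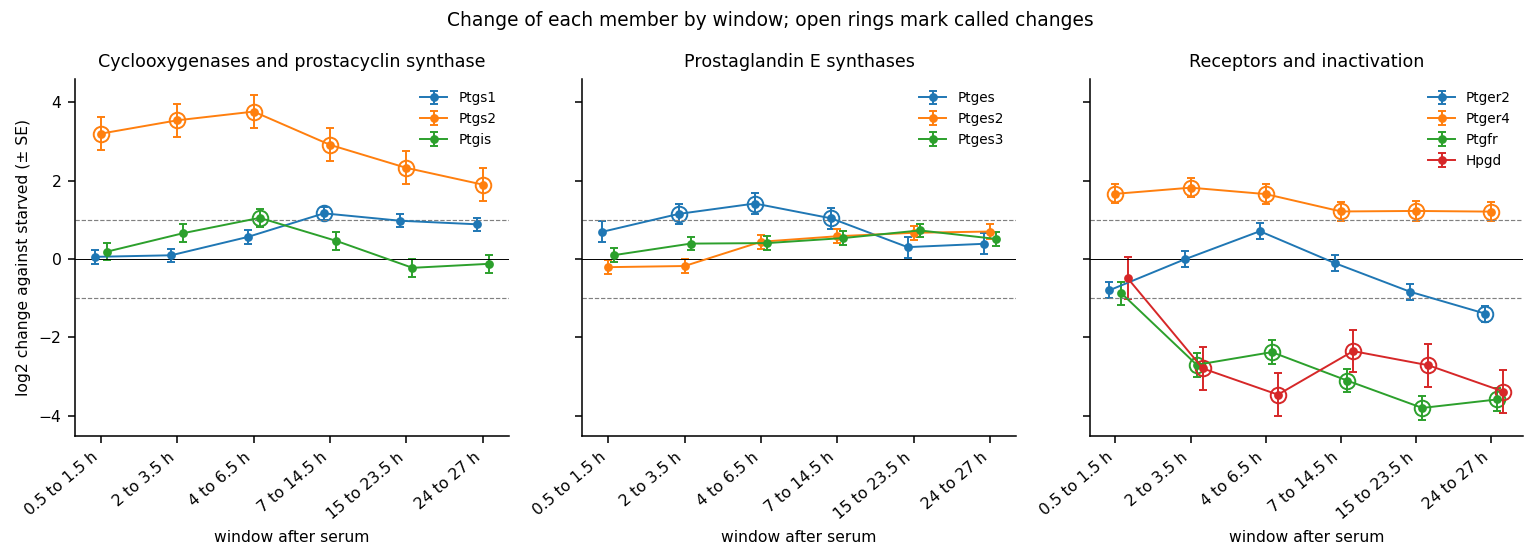
Log2 change against the starved state (vertical axis, points with SE bars from limma over 2 Cycles) in the 6 windows (horizontal axis), with 1 line per gene, open rings for called changes and dashed lines at 1 and -1. Ptgs2 and Ptger4 carry rings in all 6 windows on the upper side, and Ptgfr and Hpgd in 5 windows on the lower side.

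Among the receptors Ptger4, the EP4 receptor for prostaglandin E that raises cyclic AMP (ENSMUSG00000039942.9, chr15:5156661-5194187, minus strand), was called higher in all 6 windows. Its values are averages over transcripts. Starved libraries had 50.4 and 59.3 in Cycle 1 and 86.3 and 82.4 in Cycle 2. The libraries at 1 and 1.5 h of Cycle 1 had 209 and 326, and those at 0.5, 1 and 1.5 h of Cycle 2 had 142, 167 and 248.5. The highest value came at 1.5 h in both Cycles, earlier than that of Ptgs2.

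At 2 to 3.5 h Ptger4 had 267, 236, 239 and 278 in Cycle 1 and 242, 231 and 218 in Cycle 2, all above the starved libraries. The log2 change was 1.82 (SE 0.25, 3.53-fold, limma adjusted p = 0.000853), with 2.20 and 1.44 in the Cycles, and the other windows gave 1.21 to 1.66 (adjusted p from 0.00121 to 0.00675). At 7 to 14.5 h, 15 to 23.5 h and 24 to 27 h Cycle 1 gave 1.57, 1.53 and 1.63. Cycle 2 gave 0.86, 0.92 and 0.78 there, under 2-fold. At 12 of the 29 shared hours Ptger4 was over 2-fold above the starved mean in both Cycles. Later the level settled, at 123 to 194 in Cycle 1 and 149 to 181 in Cycle 2 at 15 to 23.5 h. Exons of Ptger4 overlap those of Ttc33 and of the pseudogene Gm15937 on the other strand, which counting on both strands cannot separate.

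Ptger2, the EP2 receptor, also linked to cyclic AMP (ENSMUSG00000037759.5, chr14:45607870-45623495, plus strand), was near the counting limit. Starved libraries held 9 and 10 reads in Cycle 1 and 21 and 15 in Cycle 2, as values of 13.5, 9.12, 20.0 and 12.4. The highest values were 28.4 at 5 h in Cycle 1 and 31.8 at 4 h in Cycle 2, and the log2 change at 4 to 6.5 h was 0.71 (adjusted p = 0.0222, not called), whereas edgeR on the recovered reads gave 1.03 (adjusted p = 0.0228). At 24 to 27 h Cycle 1 had 1 to 3 reads a library and Cycle 2 had 3 to 13, and the log2 change was -1.40 (SE 0.21, adjusted p = 0.00138, called). It was -0.92 with a pseudocount of 5 and then under the 2-fold rule. All 9 libraries of that window lay below the starved libraries of their own Cycle.

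Ptgfr, the receptor for prostaglandin F (ENSMUSG00000028036.5, chr3:151461882-151500594, minus strand), fell steeply after serum. Starved values were 329 and 303 in Cycle 1 and 226 and 199 in Cycle 2. In Cycle 1 the libraries at 1, 1.5, 2 and 3 h had 202, 101, 38.9 and 29.5. In Cycle 2 those at 0.5, 1, 1.5, 2 and 3 h had 126.5, 196, 106, 56.2 and 31.5. At 2 to 3.5 h all 7 libraries lay between 29.5 and 56.2, far below the 4 starved ones.

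The fall of Ptgfr was a log2 change of -0.88 at 0.5 to 1.5 h (SE 0.30, limma adjusted p = 0.115, not called) and of -2.70 at 2 to 3.5 h (adjusted p = 0.000464). At 4 to 6.5 h it was -2.38 (0.000625), at 7 to 14.5 h -3.10 (0.000292), at 15 to 23.5 h -3.80 (SE 0.30, 0.00012) and at 24 to 27 h -3.58 (0.000113). At the deepest window Cycle 1 had 8.22 to 20.4 with a median of 15.4 over 18 libraries, and Cycle 2 had 14.0 to 57.9 with a median of 19.3 over 9. At 28 of the 29 shared hours the value was under 0.5 times the starved mean in both Cycles.

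Hpgd, the dehydrogenase that inactivates prostaglandins (ENSMUSG00000031613.8, chr8:58773349-58799843, plus strand), fell alongside. Starved values were 116 and 107 in Cycle 1 and 34.3 and 47.0 in Cycle 2, so the Cycles began at different levels. The libraries of Cycle 1 at 1, 1.5, 2, 2.5, 3 and 3.5 h had 84.6, 55.4, 29.4, 12.6, 5.76 and 4.93. Those of Cycle 2 at 0.5, 1, 1.5, 2, 2.5 and 3 h had 25.8, 44.3, 30.8, 9.51, 9.23 and 4.63. The library at 1 h of Cycle 2 still lay between its starved libraries, and from 2 h on every library of both Cycles up to 27 h lay below all 4 of them.

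The log2 change of Hpgd was -3.46 at 4 to 6.5 h (SE 0.54, limma adjusted p = 0.00155), with -3.81 and -3.12 in the Cycles, on 5 to 16 reads a library in Cycle 1 and 2 to 5 in Cycle 2. Further called changes were -2.79 at 2 to 3.5 h (adjusted p = 0.00398), -2.35 at 7 to 14.5 h (0.0114), -2.71 at 15 to 23.5 h (0.00619) and -3.38 at 24 to 27 h (0.00212). At 7 to 14.5 h the Cycles differed in depth of the fall, with -3.48 and -1.22. The library at 24.5 h of Cycle 1 had 0 reads, which allows a value of up to 4.2. Intervals and floors cover counting error only.

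The latest hours, in Cycle 1 alone, have no replicate and no test. Relative to the 5 libraries at 25 to 29 h, the 5 at 34 to 38 h were 7.66-fold higher in Ptgfr and 7.65-fold higher in Hpgd, and 6.62% of all genes were over 2-fold higher. In the 7 hourly libraries from 32 to 38 h Ptgfr had 22.3, 47.0, 76.4, 112, 169, 220.1 and 309, the last within its starved values of 303 and 329. Hpgd had 12.5, 9.64, 24.1, 45.0, 54.1, 73.0 and 75.4 at the same hours, still below its starved 107 and 116. Over these hours Ptgs2 had 5196, 2679, 1171, 993, 1303, 1424 and 1388, and its level at 34 to 38 h was 0.289-fold of its level at 25 to 29 h, and 2.75% of all genes were over 2-fold lower. The other members stayed within 2-fold, from 0.635-fold in Ptges to 1.48-fold in Ptger2.

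The last library of Cycle 2, at 27 h, broke the course of the same receptor and enzyme. Ptgs2 went from 9077 at 26 h to 1696 and Ptger4 from 201 to 74.9, while at 27 h of Cycle 1 they had 4396 and 181. Among 10485 genes 0.172% fell more than Ptgs2 and 0.448% more than Ptger4 over that hour, and 94 genes fell over 2-fold. Hpgd went from 3.83 to 12.7 and Ptgfr from 29.8 to 41.1. Ptger2, on 13 and then 3 reads, went from 9.94 to 2.94. Its log2 change at 24 to 27 h was -1.23 without the 27 h library and -1.40 with it, called in both. Without that library, or without that at 24.5 h of Cycle 1, the count of members called at 24 to 27 h was 5, as with them.

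**Figure D4:**
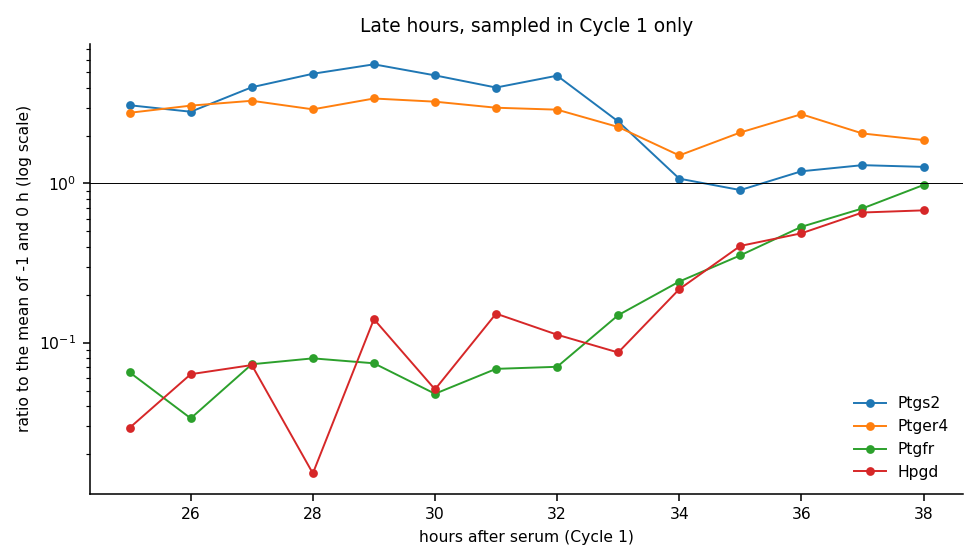
Ratio of Ptgs2, Ptger4, Ptgfr and Hpgd to their own mean at -1 and 0 h (log axis), in single libraries of Cycle 1 from 25 to 38 h, with a line at 1. Ptgs2 drops after 32 h while Ptgfr and Hpgd climb, to values of 309 and 75.4 at 38 h.

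Genes with the most similar course were ranked by the lower of 2 Pearson correlations of log2(value + 1), over 52 libraries of Cycle 1 and 32 of Cycle 2 up to 27 h, among 10485 genes. The libraries are successive hours of 1 time course and are no independent samples. Nearest to Ptgs2 were Ereg (0.963 and 0.899) and Hbegf (0.865 and 0.953), both ligands of the EGF receptor, then Phlda1, Spry4 and Errfi1, the last pair being feedback inhibitors of growth factor receptors. Among the members Ptger4 was nearest to it (0.812 and 0.871). Ptges was nearest to Ppard (0.93 and 0.92), a nuclear receptor that binds fatty acids, then Lmcd1, Tgfb1, Ykt6 and Twist2. Ptgis was nearest to P4ha2 (0.966 and 0.914), a collagen prolyl hydroxylase, then Cadm4, Lmcd1, Chpf and Cx3cl1, and correlated with Ptges at 0.913 and 0.839. Among the genes nearest to Ptgfr were Dkk2 (0.88 and 0.885), Arap1, Csgalnact1 and Adamts10. Hpgd correlated with Ptgfr less closely, at 0.698 and 0.48.

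Of 83 other genes of the pathway listed, 70 were in the table, and 35 of them were called in at least 1 window by the F test, against 43% of all genes. At 4 to 6.5 h 9 of the 70 were called higher and 10 lower, against 7.49% and 17.8% of all genes. At 7 to 14.5 h 9 and 16 were, against 6.29% and 14.6%. The median log2 change of the 70 was -0.24 at 4 to 6.5 h, against -0.25 for all genes. By branch, 12 of 26 genes of arachidonic acid release were called, 6 of 12 other synthases and reductases, 3 of 6 for inactivation and transport, 7 of 11 other receptors and partners, and 7 of 15 of the lipoxygenase branch.

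The transporters rose. Slco2a1, the carrier that takes prostaglandins up for oxidation, had 126 to 139 and 116 to 135.5 in the starved libraries of Cycles 1 and 2 and 658 to 843 and 571 to 599.6 at 4 to 6.5 h. Its log2 change was 2.39 (SE 0.18, limma adjusted p = 0.000101), and it was called in 5 windows. Abcc4, an exporter of prostaglandins and other anions, had 62.6 to 84.7 in the starved libraries and 194 to 378 at 7 to 14.5 h, a log2 change of 1.93 (SE 0.15, adjusted p = 0.00014). Slco2a1 was called higher in the same 5 windows, from 2 to 27 h, in which Hpgd was called lower.

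Other terminal enzymes divided. Akr1c18, which has prostaglandin F synthase and progesterone-reducing activity, went from 2.47 to 4.56 in the starved libraries to 26.5 to 80.5 at 7 to 14.5 h, with a log2 change of 3.31 (SE 0.33, limma adjusted p = 0.000328). Akr1b3, an aldose reductase that also makes prostaglandin F, changed by 1.03 at 24 to 27 h (adjusted p = 0.00423). Lower were the prostaglandin D synthases Ptgds (-2.47 at 24 to 27 h, adjusted p = 0.00086) and Hpgds (-1.22, adjusted p = 0.00156, with 2.8 to 11.7 in that window). Cbr2, a carbonyl reductase, fell by 2.61 at 15 to 23.5 h (adjusted p = 0.000172), and Gstm2, a glutathione transferase, by 1.64 at 24 to 27 h (adjusted p = 0.000486).

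Other prostanoid receptors also divided. Ptgir, the prostacyclin receptor, rose from 175 to 218 in Cycle 1 and 105 to 138 in Cycle 2 to 572 to 875 and 391 to 589 at 2 to 3.5 h, a log2 change of 1.96 (SE 0.19, limma adjusted p = 0.000284). Its change was 1.59 at 4 to 6.5 h (adjusted p = 0.000481, called), and at 15 to 23.5 h it was -0.99 (adjusted p = 0.00497), just under the 2-fold rule, with -1.27 and -0.72 in the Cycles. Gpr44, a receptor for prostaglandin D also called Ptgdr2, changed by 1.45 at 2 to 3.5 h (SE 0.31, adjusted p = 0.00633). Tbxa2r, the thromboxane receptor, fell from 237 to 313 and 68.4 to 73.9 in the starved libraries to 6.57 to 11.9 and 12.2 to 15.6 at 4 to 6.5 h, a log2 change of -3.47 (SE 0.59, adjusted p = 0.00218). Ptger3, the EP3 receptor that lowers cyclic AMP, changed by -3.47 at 24 to 27 h (SE 0.55, adjusted p = 0.00198), from 14.3 to 75.2 in the starved libraries to 0 to 6.83, with 0 being within the 3-read limit of 2.07 to 5.92.

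**Figure D5:**
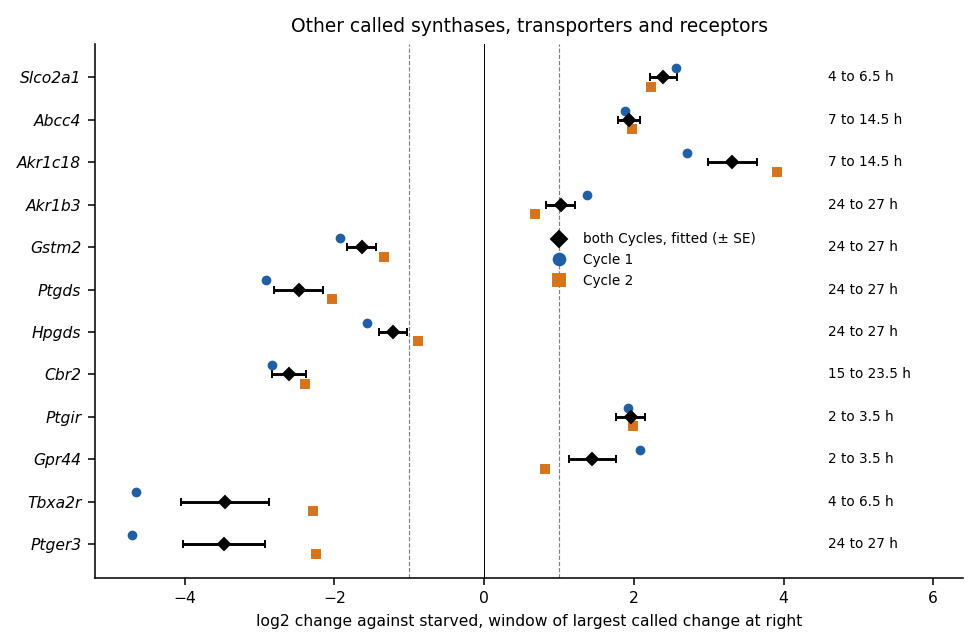
Log2 change against the starved state (horizontal axis) of 12 further called synthases, transporters and receptors at their window of largest called change, given at the right, as the fitted value with its SE (black diamonds) and the value of Cycle 1 (blue circles) and Cycle 2 (orange squares). Slco2a1, Abcc4, Akr1c18, Akr1b3, Ptgir and Gpr44 lie to the right, and Gstm2, Ptgds, Hpgds, Cbr2, Tbxa2r and Ptger3 to the left, with both Cycles on the same side for each gene.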

How the data were processed

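The authors demultiplexed the reads with CASAVA, aligned them to mm9 with STAR, counted reads on exons of both strands with HOMER and deposited a normalised signal per gene scaled to 10000000 reads a library. Of 96 columns 1 matched no library and was not used. Whole reads were recovered from the step between low values, of which at least 99.83% were whole multiples within 0.1 reads in rows of 1 transcript and 94.23% to 96.17% in all rows. The fits used limma 3.58.1 and, as an alternative, edgeR 4.0.16 in R 4.3.3 with Python 3.11.15, on all 15895 rows with no filter, a pseudocount of 1 and the Cycle as a block. Residual degrees of freedom were 6 and the prior added 2.84. The Cycle is a shared time course by the labels, and deviations of its windows from the window means correlated at 0.0459 to 0.789 over 21 pairs (median 0.444). The scripts were tested on simulated data. The members and lists were chosen with earlier results of these data known. The text names the 10 members, the 6 largest called changes of the pathway list with every called synthase, transporter and prostanoid receptor, and the 5 nearest genes to each of 4 members, of which 1 is not reported here. Coordinates of genes are from Gencode vM1 on NCBIM37. The Ptgis promoter is not used here.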

Additional observations from a re-analysis of the deposited data

Results flagged for a closer look

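In groups of 4 to 10 libraries pooled over both Cycles, 5 of 50 tests found 1 library set apart from the rest of its group by Dixon's criterion. For independent values around 1 level, chance marks about 1 in 20. These libraries are successive hours of 2 Cycles, so that rate need not hold here. Ptges3 had 929 at 5.5 h of Cycle 1, against 665 for the next library of 4 to 6.5 h, and 229.6 at 24.5 h of Cycle 1, against 615 for the next one of 24 to 27 h. The latter is the library farthest from its neighbours in the table. Ptgis had 433 at 1.5 h of Cycle 1, under 519 for the next of 0.5 to 1.5 h. Ptger4 had 74.9 at 27 h of Cycle 2, under 152 for the next of 24 to 27 h, in the library where Ptgs2 fell as well. Hpgd had 29.4 at 2 h of Cycle 1, above 12.6 for the next of 2 to 3.5 h, while it was still falling in that Cycle.

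The change of Ptgis at 24 to 27 h was 0.34 in Cycle 1, where all 5 libraries lay above the starved mean, and -0.59 in Cycle 2, where all 4 lay below it. The difference was not tested.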

How the results depend on the processing

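Of 131 counts of members under the alternatives 127 stayed within 1.5 times the value reported, and of 190 changes of single members 184 kept their direction and their side of the threshold; none turned its direction. With the adjusted p alone and no fold rule, 8 members were called at 15 to 23.5 h and 8 at 24 to 27 h, in place of 4 and 5. Leaving out 1 starved library or 1 Cycle in the window gave 1 to 2 members at 0.5 to 1.5 h and 3 to 6 at 7 to 14.5 h, the lowest value in each case without Cycle 1. Ptges2 (0.70) and Ptges3 (0.73) passed on the adjusted p alone, Ptger2 missed the fold rule with a pseudocount of 5 (-0.92), and Ptgis missed it in 3 settings (0.97 to 1.00). The baselines of -1 h or 0 h alone and the omission of 27 h in Cycle 2 were chosen after seeing the data. Without the replicate block 8 members were called in any window and 5524 of all genes in place of 6832, and no call of a member changed. On the recovered reads edgeR called 6674 genes in any window. Among all genes, calls of lower values at 2 to 3.5 h numbered 2718, but 1572 under median-ratio scaling and 1576 by edgeR, and at 0.5 to 1.5 h 512, 338 and 267. Ptger2, and Hpgd from 2 h on, rest on few reads a library, which limits their changes.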
